A study of Mus musculus with 26 samples.

Results

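A set of 8 genes of chemokine signalling, cytokine reception and leukocyte adhesion was followed in hearts of mice that had undergone TAC (transverse aortic constriction), the banding of the aortic arch that puts a pressure load on the left ventricle. They were Ccl2, Ccl7, Ccl8, Cxcl12, Il4ra, Il6st, Vcam1 and Icam1, the first 4 being secreted chemokines, the next 2 chains of cytokine receptors and the last 2 adhesion molecules. They are 8 of the 8251 genes that a probe set of the array names singly, and they were chosen by name, as every probe set that the probe-to-gene table assigns to one of them. This gave 14 probe sets: 3 for Cxcl12, 3 for Vcam1, 2 for Il4ra, 2 for Il6st and 1 for each other gene.

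Total RNA of the heart was hybridised to 26 Affymetrix MG_U74Av2 arrays, 1 array per sample. The groups were TAC for 48 h (n = 5) and sham for 48 h (n = 4), TAC for 10 d (n = 4) and sham for 10 d (n = 4), and TAC for 3 wk (n = 5) and sham for 3 wk (n = 4). The labels name no strain, sex, age or chamber, and do not say that each array is a separate animal, so p-values measure the spread between these arrays, which may be in part technical. The RNA is from whole tissue, with all its cell types.

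Array medians were 742 to 1031, correlations of log2 values were 0.922 to 0.961 within groups and 0.878 to 0.965 between them, and no pair of arrays held identical values. Of the markers that define heart muscle, 7 were on the array, and each lay at or above the 93.1 percentile of every array, Myh6 between 99797.7 and 193774. No scan day that the array files give held more than 1 duration, so an effect of duration cannot be told apart from one of scan day. At 48 h all arrays shared a day. At 10 d, TAC replicate 4 was scanned on a day of its own, and at 3 wk TAC replicates 4 and 5 were scanned together on another day, with no day given for sham replicates 1 and 4.

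Chemokines are small secreted proteins that direct the movement of leukocytes through G protein-coupled receptors. CC chemokines such as Ccl2, Ccl7 and Ccl8 attract leukocytes, and in the injured or loaded heart Ccl2 is best known for recruiting monocytes through its receptor Ccr2. Cxcl12 acts through Cxcr4 and Ackr3 and is made by stromal and endothelial cells, with a known role in retaining haematopoietic progenitors. Il4ra is the receptor chain shared by interleukin-4 and interleukin-13 and signals through Stat6, whereas Il6st (gp130) is the signalling chain shared by receptors for interleukin-6, leukemia inhibitory factor and cardiotrophin, and activates Stat3 in cardiomyocytes. Vcam1 and Icam1 are displayed by activated endothelium and bind leukocyte integrins.

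Ccl8, Cxcl12 and Il4ra were the members with a probe set past the threshold in one of the TAC comparisons, and the 250 bases before their annotated starts are shown for that reason (RefSeq, GRCm38.p6, plus strand, 5′ to 3′). They lie at chr11:82114935-82115184 for Ccl8, chr6:117168285-117168534 for Cxcl12 and chr7:125552021-125552270 for Il4ra. In the Ccl8 window the capitals mark a match to the TATA box motif, TATAAA. In the other windows they mark matches to the GC box motif on either strand, which reads GGGCGG on one of them.
Ccl8 promoter: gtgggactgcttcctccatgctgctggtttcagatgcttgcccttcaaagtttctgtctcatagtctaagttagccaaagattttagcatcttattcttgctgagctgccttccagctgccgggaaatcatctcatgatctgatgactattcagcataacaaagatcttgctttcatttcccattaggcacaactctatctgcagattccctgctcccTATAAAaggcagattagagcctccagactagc
Cxcl12 promoter: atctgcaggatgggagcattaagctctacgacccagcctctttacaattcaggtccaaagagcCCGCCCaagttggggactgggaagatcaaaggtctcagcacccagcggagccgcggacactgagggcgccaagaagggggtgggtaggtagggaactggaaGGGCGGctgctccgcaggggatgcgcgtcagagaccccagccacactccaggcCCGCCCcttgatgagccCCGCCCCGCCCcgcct
Il4ra promoter: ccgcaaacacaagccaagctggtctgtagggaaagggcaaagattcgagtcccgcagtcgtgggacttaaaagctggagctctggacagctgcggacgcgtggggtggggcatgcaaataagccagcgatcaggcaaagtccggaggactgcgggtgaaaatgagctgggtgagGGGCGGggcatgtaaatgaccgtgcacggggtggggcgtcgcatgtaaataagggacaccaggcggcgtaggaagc
Besides these, a kappaB-like site (GGANNTTCC), a STAT site (TTCNNNGAA) and the STAT6 site, which has 1 more free base in the middle, were searched on both strands. Ccl8 held 1 TATAAA, beginning at -32 from the start, a motif in 12.4% of 32851 promoter windows of the same length. The Cxcl12 window held 5 matches to GGGCGG, at -187, -86, -33, -16 and -11, the last 2 of which overlap, and the Il4ra window 1, at -76. GGGCGG was in 32.7% of all windows. Of the 5 members with an entry in the promoter table, Icam1 held GGANNTTCC at -153, where the match reads on both strands, and TTCNNNGAA at -42, motifs in 3.59% and 7.02% of windows. Icam1 and Il6st also each held 1 GGGCGG, and the STAT6 site (5.85% of windows) was in none of the 5. A match in letters is a description of the window and shows no binding. Ccl2, Ccl7 and Vcam1 had no entry. Ccl2, Ccl7 and Ccl8 belong to one cluster on chromosome 11, where the annotation orders the protein-coding genes as Ccl2, Ccl7, Ccl11, Ccl12 and Ccl8.

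All values below are intensities on a linear scale as deposited, and differences are log2 values of TAC minus sham. Values under 167.9, the 20th percentile of all values, were raised to this floor before taking logs. Detection calls were not used here, so nearness to background is described by this floor and by the pooled median of 880.1. A probe set was tested where it exceeded that median in at least 4 arrays, and 11 of the 14 did. The other 3, for Ccl7, Icam1 and the second probe set of Il4ra, exceeded it in 0, 2 and 2 arrays, and their values come from the same limma model without the filter. That filter keeps a probe set that is high in 1 group only, so the 11 are not all members.

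Of the CC chemokine genes, Ccl8 was higher in TAC hearts at 3 wk. Ccl2 lay above sham in every TAC array at 10 d but did not pass the test, and Ccl7 was dim throughout. Ccl8 (probe set 92459_at) read 776.6, 588.1, 1113.6, 3088.7 and 1794.3 in hearts after 3 wk of TAC, against 368, 238, 291.2 and 132.7 in sham hearts. Every TAC array stood above every sham array, 1 sham array lay under the floor, and the 2 highest TAC arrays were those of the separate scan day. Mean intensity was 1472 ± 1014 (SD, n = 5) in TAC hearts, against 257 ± 98.8 (SD, n = 4) in sham hearts. The log2 difference was 2.27 (SE 0.46, 95% interval 1.33 to 3.20), or 4.81-fold on the floored scale, with a limma adjusted p of 0.00439. In the same comparison the summed intensity of 16 macrophage and monocyte markers was 58105 to 76810 in TAC and 50644 to 58883 in sham arrays, and its part in the Ccl8 result was not tested. In tissue RNA, more cells of a type and more RNA per cell cannot be told apart.

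At 10 d, Ccl8 read 1155.7, 1385.7, 1650.1 and 1556.1 in TAC hearts, against 507.9, 1063.3, 1017.6 and 286.9 in sham hearts. The groups again did not overlap, but the TAC minimum was close to the highest sham value, and the difference of 1.18 (SE 0.48) missed the threshold (limma adjusted p = 0.153). At 48 h, Ccl8 read 518.5, 1045.3, 629, 1870.1 and 1510.3 in TAC hearts, against 890.7, 919.7, 537.8 and 361.1 in sham hearts. Here the groups overlapped, with a difference of 0.65 (SE 0.46, limma adjusted p = 0.924). By group mean the order of Ccl8 levels was TAC at 10 d, TAC at 3 wk, TAC at 48 h, sham at 48 h, sham at 10 d and sham at 3 wk, and each neighbouring pair in that order overlapped.

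The sham groups also differed among themselves in Ccl8. Sham hearts at 3 wk were 1.30 below those at 48 h on the log2 scale, and an F test over the 3 sham groups passed for Ccl8 by a narrow margin (limma adjusted p = 0.0475). That call is not stable: it held in 10 of 26 fits with 1 array left out and under 5 of 11 other settings, not with the 40th percentile floor, the offset of 100, no filter, no intensity trend or the replicate block, and Ccl8 was not tested with the 70th percentile filter. Of all 7297 probe sets tested, 33.6% passed that F test, so a change among sham groups was common on these arrays. For the sham groups too, duration cannot be told apart from scan day.

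Within the 1 scan day that held both groups at 3 wk (3 TAC and 2 sham arrays), Ccl8 differed by 1.60 and the arrays did not overlap. The limma adjusted p was 0.235 with that day's arrays alone. With day as a block the limma adjusted p was 0.226, in a fit that leaves out the 2 sham arrays with no day given. Both fits gave the same difference of 1.60, so they are not separate checks. With a floor at the 40th percentile the difference was 1.18 and missed the threshold (limma adjusted p = 0.0624), where 4 of 4 sham arrays lay under that floor of 544.6, so that the value is a lower bound. Leaving out any 1 of the 26 arrays kept the call, with differences of 1.93 to 2.53. At 10 d the Ccl8 difference within the main scan day was 1.13, from 3 TAC and 4 sham arrays.

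Ccl2 (probe set 102736_at), the principal attractant of Ccr2-bearing monocytes, read 849.1, 1524.1, 1123.9 and 981.4 in hearts after 10 d of TAC, against 558.3, 533.8, 167.7 and 458.2 in sham hearts. No TAC array was as low as a sham array, and 1 sham array lay just under the floor. The difference was 1.49 (SE 0.51, 95% interval 0.45 to 2.53), which did not pass after adjustment over all probe sets (limma adjusted p = 0.0855). The call moved with 1 array of another duration: without TAC replicate 3 of 3 wk, which lies under the floor, the limma adjusted p was 0.0238. Within the main scan day of 10 d the difference was 1.54 (limma adjusted p = 0.152).

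At 48 h, Ccl2 read 1862.5, 1299.2, 673.8, 1809.2 and 1134.2 in TAC hearts, against 605.5, 790.7, 325.2 and 535.2 in sham hearts. Of the TAC arrays, 4 were above all sham arrays and 1 lay between them. This difference of 1.24 (SE 0.48) had an unadjusted p of 0.0157 and a limma adjusted p of 0.632. At 3 wk, Ccl2 read 1574, 1537, 139.3, 850.3 and 669.6 in TAC hearts, against 697.1, 843.6, 601.6 and 483.8 in sham hearts. The TAC arrays spread on both sides of the sham arrays, and the difference was 0.21 (SE 0.48, 95% interval -0.78 to 1.20). In order of group mean, the 3 TAC groups ran from 48 h to 10 d to 3 wk, above sham at 3 wk, 48 h and 10 d, with overlap between all neighbours.

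Ccl7 (probe set 94761_at), another ligand of Ccr2 and the neighbour of Ccl2 in the cluster, stayed under the pooled median on all 26 arrays, from 249.9 to 778.3. After 48 h it read 588.5, 249.9, 328.4, 647.4 and 459.1 in TAC hearts, against 298.8, 343.5, 289.5 and 273.2 in sham hearts. After 10 d it read 306.3, 307.8, 539.2 and 305 in TAC hearts, against 329, 528.3, 529 and 614.8 in sham hearts. After 3 wk the values were 778.3, 763, 449.2, 347.8 and 315.4 in TAC hearts and 767.1, 332.1, 726.8 and 447 in sham hearts. The groups overlapped at each duration. The differences in the fit without the filter were 0.51 (SE 0.33) at 48 h, -0.47 (SE 0.35) at 10 d and -0.12 (SE 0.33) at 3 wk. Limma adjusted p-values were 1, 0.562 and 0.927. At these intensities a change of Ccl7 could be missed, and the interval at 3 wk ran from -0.80 to 0.56.

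Cxcl12, the chemokine of stromal and endothelial cells, passed the threshold after 3 wk of TAC on 1 of its 3 probe sets. Mean levels at that duration were higher in TAC on all 3. Cxcl12 lay above the pooled median in all 26 arrays on 2 of the 3. On probe set 100112_at it read 10875.6, 12815.3, 14128.3, 14193.6 and 12464.7 in hearts after 3 wk of TAC, against 8265.9, 9527.2, 9231.5 and 9859.8 in sham hearts. The groups did not overlap. On the log2 scale TAC hearts averaged 13.65 ± 0.16 (SD, n = 5), against 13.17 ± 0.11 (SD, n = 4) for sham hearts, a difference of 0.48 (SE 0.10, 95% interval 0.27 to 0.69), or 1.39-fold, with a limma adjusted p of 0.00716. Leaving out any 1 array kept the call, with differences of 0.43 to 0.54.

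At the earlier durations the difference on this probe set had the opposite sign. After 10 d it read 8916.6, 11073.6, 10697.7 and 10335.9 in TAC hearts, against 12097, 11483, 10829.6 and 14137.4 in sham hearts. After 48 h the values were 13354.7, 13917.1, 12951, 10371.8 and 14200.8 in TAC hearts and 15596.6, 13015.9, 13666.3 and 14982.7 in sham hearts. Groups overlapped at both durations, and the differences of -0.24 (SE 0.11) at 10 d and -0.15 (SE 0.10) at 48 h missed the threshold (limma adjusted p = 0.206 and 0.924).

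The sham groups themselves differed: Cxcl12 in sham hearts at 3 wk was 0.63 below sham at 48 h (F test over the 3 sham groups, limma adjusted p = 0.000318). TAC hearts at 3 wk and 48 h had nearly the same mean, 13.65 on the log2 scale in both. In the order of group means, sham at 48 h was highest and sham at 3 wk lowest, and all neighbours overlapped. Within the shared scan day at 3 wk the difference was 0.42, with a limma adjusted p of 0.235 from that day alone. With day as a block the difference was again 0.42 (limma adjusted p = 0.233). That fit also leaves out the 2 sham arrays with no day given and is not a separate check.

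The 2 other Cxcl12 probe sets did not pass at any duration. Probe set 162234_f_at, of a type whose probes can also match related transcripts, read 3046.6, 3438, 3158.7, 3492.1 and 2645.2 in hearts after 3 wk of TAC, against 2443.8, 2935.7, 2359.7 and 2842.3 in sham hearts. Its difference of 0.25 (SE 0.13, limma adjusted p = 0.263) had the sign of the first probe set, with overlapping groups. Probe set 160511_at, above the pooled median in 8 arrays, differed by 0.39 (SE 0.27) at 3 wk and by 0.70 (SE 0.29, limma adjusted p = 0.158) at 10 d, where the first probe set was negative. The Cxcl12 result therefore rests on 1 probe set of 3.

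**Figure D1:**
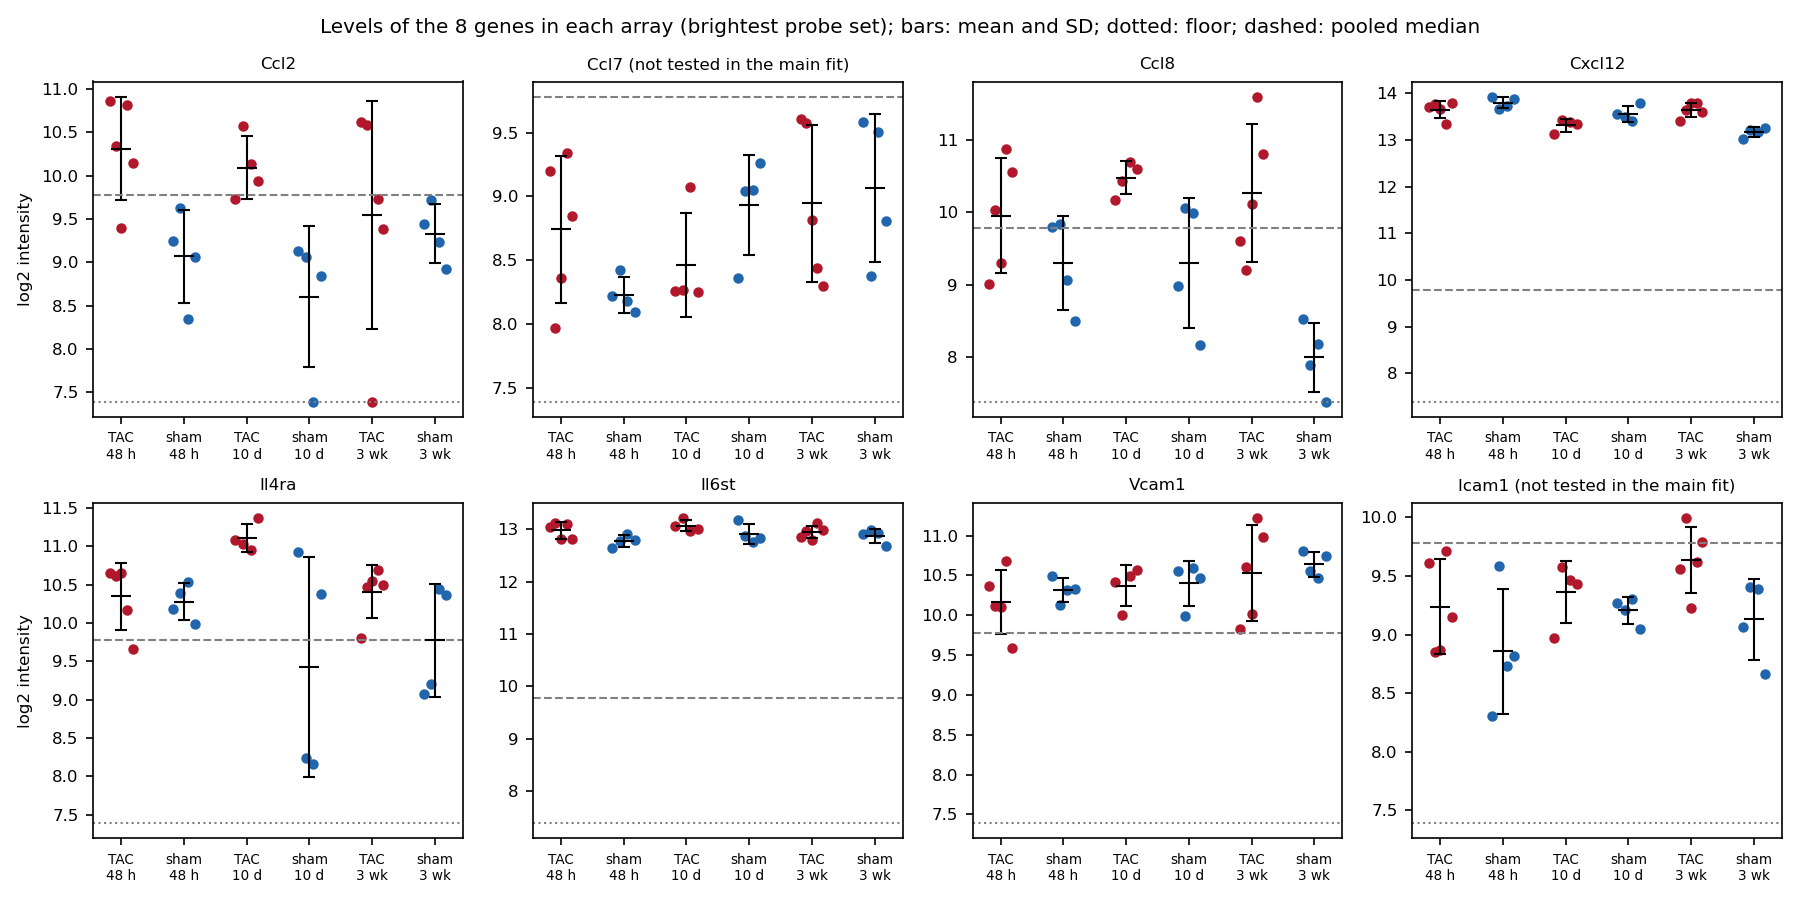
Log2 intensity of each gene's brightest probe set in every array (points), with the mean and SD of each group (bars), TAC in red left of sham in blue at each duration; the dotted line is the floor of 167.9 and the dashed line the pooled median of 880.1. Ccl8 and Cxcl12 do not overlap between TAC and sham at 3 wk, nor do Ccl2, Ccl8 and Il4ra at 10 d, while Ccl7 lies under the pooled median throughout.

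Among the receptor chains, Il4ra was higher after 10 d of TAC and Il6st did not pass at any duration. On probe set 102021_at, Il4ra read 2166.3, 2097.2, 1974.2 and 2637.2 in hearts after 10 d of TAC, against 1937.3, 303, 286.6 and 1325.9 in sham hearts. The TAC arrays were alike and the sham arrays were not: the highest sham array (1937.3) was close to the lowest TAC array (1974.2), whereas sham replicates 2 and 3 were the lowest of all 26 arrays. On the log2 scale TAC hearts averaged 11.11 ± 0.18 (SD, n = 4), against 9.42 ± 1.43 (SD, n = 4) for sham hearts. The difference was 1.68 (SE 0.44, 95% interval 0.78 to 2.58), or 3.21-fold, with a limma adjusted p of 0.0244. The summed macrophage and monocyte markers were 72850 to 79542 in TAC and 52156 to 55181 in sham arrays of the same comparison, and their part in the Il4ra result was not tested.

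This Il4ra call was not held by all arrays. It was lost without sham replicate 2 of 10 d (1.29, limma adjusted p = 0.0970) or without sham replicate 3 (1.26, limma adjusted p = 0.102), the 2 low arrays. It was also lost without TAC replicate 2 (1.71, limma adjusted p = 0.0579) or TAC replicate 4 of 10 d (1.60, limma adjusted p = 0.0691). Within the main scan day of 10 d the difference was 1.60 (limma adjusted p = 0.0760), and with only the 10 d groups in the fit the limma adjusted p was 0.0906. It also missed the threshold without the filter on low values (limma adjusted p = 0.0595).

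At 3 wk, Il4ra read 897.7, 1418, 1502.2, 1656 and 1449 in TAC hearts, against 540.9, 588.9, 1391.5 and 1321.8 in sham hearts. The sham arrays again fell into a low and a high pair, overlap was present, and the difference of 0.63 (SE 0.41) did not pass (limma adjusted p = 0.425). At 48 h the values were 1609.7, 1566.4, 1602.7, 1149.3 and 809 in TAC hearts and 1163, 1343.9, 1486.8 and 1017.9 in sham hearts, a difference of 0.07 (SE 0.41, 95% interval -0.78 to 0.92). TAC at 10 d was the highest group and its arrays stood apart from those of the next, TAC at 3 wk, whereas all later neighbours overlapped.

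The second Il4ra probe set, 161192_at, had the opposite sign at 10 d. It read 260.1, 470.9, 374 and 734.6 in TAC hearts, against 630.8, 833.7, 115.3 and 979.7 in sham hearts, 1 of these under the floor. The difference without the filter was -0.34 (SE 0.45, limma adjusted p = 0.805). With 2 of 26 arrays above the pooled median, this probe set measures Il4ra near the dim end of the scale, and the 10 d call rests on the brighter one.

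Il6st, the shared gp130 chain, was measured well above the pooled median on every array. Probe set 94345_at read 8426.7, 8942.8, 7203.5, 8711.2 and 7148.3 in hearts after 48 h of TAC, against 6364.1, 6969.1, 7671.5 and 7113.1 in sham hearts. It read 8579, 9462.6, 8038.8 and 8210.5 after 10 d of TAC, against 9210.4, 7497.5, 6871.2 and 7330.6 in sham hearts. After 3 wk it read 7413.5, 8031.7, 7142.8, 8836 and 8067.4 in TAC hearts, against 7631.5, 8073.5, 7758.6 and 6539.7 in sham hearts. All 3 pairs overlapped. Differences were 0.20 (SE 0.10), 0.16 (SE 0.10) and 0.08 (SE 0.10), with limma adjusted p-values of 0.815, 0.433 and 0.732.

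These are the narrowest intervals among the receptor probe sets, -0.01 to 0.40 at 48 h, -0.06 to 0.37 at 10 d and -0.13 to 0.28 at 3 wk. A difference in Il6st of 1 on the log2 scale would lie outside all of them. The second probe set, 98349_at, gave -0.03 (SE 0.15), -0.05 (SE 0.16) and 0.07 (SE 0.15). It differed among the sham groups instead, where 3 wk was 0.68 above 48 h (F test over the 3 sham groups, limma adjusted p = 0.00525). Its TAC groups had the same order, 1656 ± 163 (SD, n = 5) at 48 h, 2235 ± 336 (SD, n = 4) at 10 d and 2877 ± 489 (SD, n = 5) at 3 wk. The F test did not pass with median centring. Medians of the sham arrays also rose, from 742 to 818 at 48 h, to 895 to 915 at 10 d and 951 to 1031 at 3 wk. The part of this rise in the Il6st result was not tested.

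**Figure D2:**
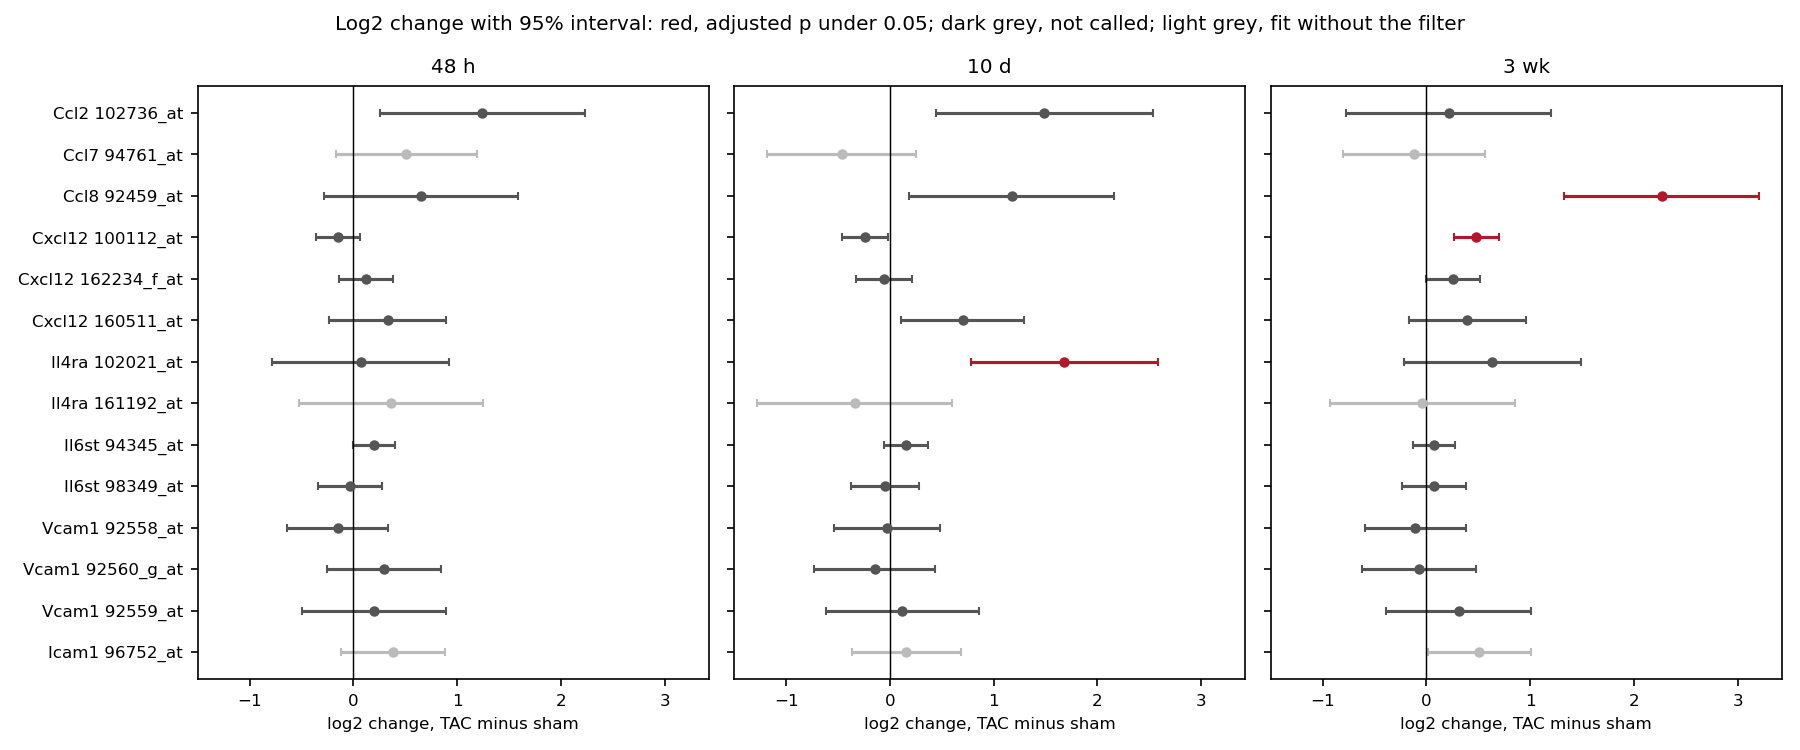
Log2 change, TAC minus sham, with its 95% interval for the 14 probe sets at 48 h, 10 d and 3 wk; red points have an adjusted p under 0.05, dark grey points do not, and light grey points come from the fit without the filter. The red points are Il4ra 102021_at at 10 d (1.68) and Ccl8 92459_at (2.27) and Cxcl12 100112_at (0.48) at 3 wk.

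The adhesion molecules did not pass in any comparison. Vcam1 (probe set 92558_at), the endothelial ligand of the integrin alpha4 beta1, read 909.9, 1558.9, 1039.7, 2381.7 and 2031.1 in hearts after 3 wk of TAC, against 1783.6, 1504.1, 1412.1 and 1715.4 in sham hearts. The TAC arrays lay on both sides of the sham arrays, with the 2 highest again from the separate scan day. Within the shared day the difference was -0.36, against -0.11 (SE 0.24) over all arrays. At 48 h and 10 d it was -0.15 (SE 0.24) and -0.03 (SE 0.25), and limma adjusted p-values were 0.988, 0.965 and 0.848 from 48 h to 3 wk.

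The other Vcam1 probe sets gave 0.29, -0.15 and -0.08 (92560_g_at, a type that shares probes with another set) and 0.20, 0.12 and 0.31 (92559_at) at 48 h, 10 d and 3 wk. All groups overlapped and the smallest limma adjusted p among these 6 was 0.663. Intensities ran from 682.9 to 2502.1 and from 300.1 to 1084 across the 26 arrays. The 3 Vcam1 probe sets did not have a common sign at any duration, and their 95% intervals at 3 wk reached from -0.63 to 1.01 in all.

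Icam1 (probe set 96752_at), which binds the leukocyte integrins LFA-1 and Mac-1, read 755.1, 1019.5, 600.8, 787.1 and 885.9 in hearts after 3 wk of TAC, against 534.4, 678.9, 670.2 and 406 in sham hearts. Of the TAC arrays, 4 were above all sham arrays and 1 lay among them. The difference in the fit without the filter was 0.51 (SE 0.24, 95% interval 0.01 to 1.01), with an unadjusted p of 0.0460 and a limma adjusted p of 0.286. At 10 d it read 502.1, 763.4, 707.7 and 692.9 in TAC hearts and 615.6, 591.9, 633.7 and 528.9 in sham hearts, a difference of 0.16 (SE 0.25). At 48 h it read 783.7, 462.6, 467.1, 837.8 and 568.8 in TAC hearts and 315.6, 768.3, 424.5 and 451.6 in sham hearts, a difference of 0.38 (SE 0.24). The mean of Icam1 was highest in the 3 TAC groups, in the order 3 wk, 10 d and 48 h, and overlap was present between all neighbours.

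Counted together, 0 of the 11 tested probe sets passed at 48 h, 1 at 10 d and 2 at 3 wk, all higher in TAC, beside 0.0548%, 4.87% and 4.73% of the 7297 probe sets tested. At an unadjusted p under 0.05 the counts were 1, 5 and 2 of 11, beside 6.17%, 21.0% and 19.6% of all probe sets tested. With 11 probe sets, the 1 call at 10 d is a share of the same order as the background, and at 3 wk the unadjusted count is close to it. The 2 calls at 3 wk and the 5 at an unadjusted p under 0.05 at 10 d are larger shares than the background. The genes were chosen with earlier results known, and some count more than once. For these reasons the counts are not read as a result about these genes. The 3 probe sets left out by the filter passed in no comparison of TAC with sham without it (limma, with 0, 0 and 1 at an unadjusted p under 0.05, beside 4.63%, 15.9% and 16.8% of all), where 0.0322%, 2.31% and 2.59% of 12422 did. The median difference of the 11 was 0.20 at 48 h, 0.12 at 10 d and 0.25 at 3 wk, against -0.01, -0.02 and -0.01 over all tested probe sets. These medians are not read as a result: the filter can keep a probe set through its TAC arrays, and some genes count more than once. At 10 d the 3 left out differed by -0.47 (Ccl7), -0.34 (Il4ra 161192_at) and 0.16 (Icam1). Of all 14, TAC arrays were entirely above sham arrays for 0 at 48 h, 3 at 10 d (Ccl2, Ccl8 and Il4ra) and 2 at 3 wk (Ccl8 and Cxcl12), and none was entirely below. Over all 12422 probe sets, 1.91%, 11.0% and 6.45% did not overlap.

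Whether the TAC effect differed between durations was tested as the difference of the differences, and 0 of 11 passed in limma for 10 d against 48 h, 3 wk against 10 d and 3 wk against 48 h. Over all 7297 probe sets 0.0959%, 0.0274% and 0% passed. At an unadjusted p under 0.05 the counts were 1, 1 and 2 of 11, near the 10.6%, 8.39% and 11.2% of all probe sets. The largest relative to its error was Cxcl12 100112_at, whose effect was 0.72 (SE 0.15) higher at 3 wk than at 10 d (unadjusted p = 6.45e-05, limma adjusted p = 0.146) and 0.63 (SE 0.15) higher than at 48 h (limma adjusted p = 0.0905). The difference from 48 h passed without TAC replicate 1 of 3 wk, the only array whose removal did so. Ccl8 at 3 wk exceeded its effect at 48 h by 1.61 (SE 0.64, limma adjusted p = 0.347), and Il4ra at 10 d exceeded its effect at 48 h by 1.61 (SE 0.60, limma adjusted p = 0.330). No change of effect was therefore called. Of the 11, 3 passed the F test over the sham groups (Cxcl12 100112_at, Il6st 98349_at and, not in most settings, Ccl8), beside the 33.6% of all.

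Markers of other cell types moved in the same comparisons. After 10 d of TAC, 8 of 11 tested macrophage and monocyte genes rose, among them Ctss (0.83), Lyz2 (0.80), Mpeg1 (0.74) and C1qc (0.63). After 3 wk, 4 of 11 rose (Lyz2 0.66, Cd68 0.63, C1qb 0.61 and C1qa 0.35). At 48 h none of the 11 passed in limma (1 at an unadjusted p under 0.05), and the summed intensity was 56283 to 67632 in TAC and 52157 to 57189 in sham arrays. Over all 5564 genes tested, 3.04% rose at 10 d and 2.93% at 3 wk, and 6.43%, 21.6% and 20.04% had an unadjusted p under 0.05 at 48 h, 10 d and 3 wk.

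Fibroblast markers rose for 6 of 14 genes at 10 d (Postn 2.90, Col1a1 2.02, Mfap5 1.56 and Meox1 1.42 the largest) and for 6 of 14 at 3 wk (Postn 2.38, Col1a1 1.68, Mfap5 1.38 and Fbln2 1.25). Their sums at 3 wk were 178592 to 263787 in TAC and 132853 to 178376 in sham arrays, and at 10 d 188920 to 244484 in TAC and 130137 to 143516 in sham arrays. Endothelial markers rose for 5 of 13 genes at 10 d, led by Cldn5 (1.31) and Cd34 (1.29), and for 1 at 3 wk, Cd34 (0.98). Their sums were 80535 to 95308 in TAC and 63965 to 69027 in sham arrays at 10 d, and 72409 to 97038 in TAC and 64118 to 72641 in sham arrays at 3 wk. Of the 7 genes listed for smooth muscle and pericytes, only Des (0.49) passed, at 10 d. A call of this 1 gene is not read as a change of these cells. At 48 h no fibroblast, endothelial or smooth muscle marker passed in limma (1, 1 and 0 at an unadjusted p under 0.05).

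Cardiomyocyte markers fell for 1 of 7 genes at 10 d (Ryr2, -0.43) and 1 of 7 at 3 wk (Ckm, -0.37), where 1.99% and 1.89% of all genes tested fell. In limma, 0, 1 and 5 of 7 had an unadjusted p under 0.05 at 48 h, 10 d and 3 wk. The share of all genes at 3 wk was 20.04%, and the median difference of the 7 there was -0.35. Their sums at 3 wk were 546801 to 621304 in TAC and 673893 to 778501 in sham arrays. Lymphocyte markers were near background, 5 of 10 (Cd3e, Cd3d, Cd3g, Cd8a and Cd2) being under the floor in at least 13 of 26 arrays, and none of 3 tested passed in limma, with or without adjustment. Of the neutrophil and mast cell markers, S100a9 and Mcpt4 of 11 were that dim, and again none of 3 tested passed either way. The Gapdh 3′ to 5′ ratio, a sign of RNA integrity, was 0.842 to 1.01 in TAC and 0.926 to 1.14 in sham arrays at 3 wk. The part of these markers and of this ratio in the results for Ccl8, Cxcl12 and Il4ra was not tested.

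**Figure D3:**
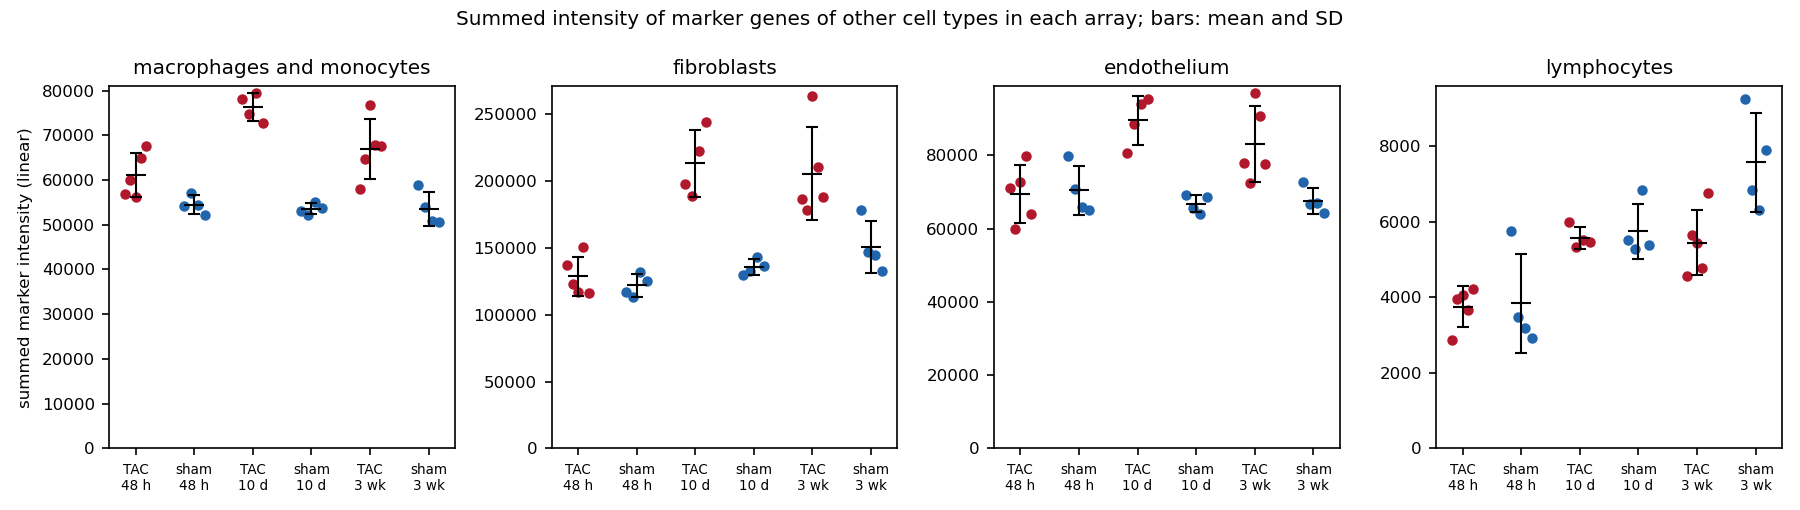
Summed intensity (linear axis) of the marker genes on the array for macrophages and monocytes, fibroblasts, endothelium and lymphocytes in each array (points), with mean and SD (bars), TAC in red left of sham in blue. Macrophage sums at 10 d are 72850 to 79542 in TAC and 52156 to 55181 in sham arrays, without overlap, whereas at 3 wk the lowest TAC array (58105) lies under the highest sham array (58883).

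Other genes of the same pathways were mostly without a call. Of 32 further chemokines, 21 were on the array and 9 passed the filter, none of which passed in limma at any duration (0, 1 and 2 at an unadjusted p under 0.05 at 48 h, 10 d and 3 wk). Cx3cl1, the membrane-bound chemokine of endothelium, differed by 0.05, 0.19 and 0.35 at 48 h, 10 d and 3 wk, and Ccl9 by 0.45, 0.18 and 0.22. These were the brightest, and the largest differences were in other genes. Ccl12 differed by 0.96 at 3 wk (limma adjusted p = 0.0840) and Cxcl14 by -0.77 at 10 d (limma adjusted p = 0.0853). Among chemokine receptors 5 of the 18 on the array passed the filter and none passed the limma test (1, 0 and 0 at an unadjusted p under 0.05), with Ackr3, which binds Cxcl12, at 0.37, 0.15 and -0.22 and Cx3cr1, the receptor of Cx3cl1, at 0.36, 0.09 and -0.02. Median differences at 3 wk were -0.13 for the chemokines and -0.02 for the receptors, against 0.00 for all genes tested.

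In the gp130 family of ligands, receptors and signal carriers, 9 of 14 on the array were tested in limma and none passed (1, 2 and 2 at an unadjusted p under 0.05), Stat3 differing by 0.06, 0.17 and 0.14 and Jak1 by 0.01, 0.02 and 0.08. The largest differences were in other genes, Il6ra at 48 h (1.19, limma adjusted p = 0.577) and Osmr at 10 d (0.56, limma adjusted p = 0.133). At 3 wk Tyk2 differed by -0.66 (limma adjusted p = 0.471) and Osmr by 0.58 (limma adjusted p = 0.105). For interleukin-4 and interleukin-13, 5 of 12 were tested in limma and none passed (0, 2 and 0 at an unadjusted p under 0.05). Stat6, the factor downstream of Il4ra, differed by -0.01, -0.07 and 0.11 at 48 h, 10 d and 3 wk, and Jak3, which pairs with the common gamma chain, by 0.04, 0.21 and 0.19. At 10 d the largest difference of this list was that of Irs2 (1.31, SE 0.60, limma adjusted p = 0.209). Irs2 differed by 0.36 at 48 h and by -0.49 at 3 wk. The median of the 5 at 10 d was 0.25, where Il4ra itself was at 1.68.

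Among leukocyte adhesion genes 10 of 18 were tested. Msn, the cytoskeletal linker moesin, rose at 10 d (0.97, limma adjusted p = 0.00974) and at 3 wk (0.97, limma adjusted p = 0.00704), and Icam2, an endothelial integrin ligand, rose at 10 d (0.49, limma adjusted p = 0.0496). Of 18 tested genes of NF-kB and cytokine signalling, 4 rose and 1 fell at 10 d, beside 3.04% and 1.99% of all genes tested. These were Tnfrsf1a, a receptor for tumour necrosis factor (0.76), Nfkbia, the inhibitor of NF-kB (0.57), Csf1r, the macrophage growth factor receptor (0.55), Rela, an NF-kB subunit (0.37), and Ikbkg, a subunit of the kinase that frees NF-kB (-0.48). At 3 wk, Tgfb1 (1.13, limma adjusted p = 0.0179) and Rela (0.47, limma adjusted p = 0.00811) rose. At 48 h none of either list passed in limma (2 and 0 at an unadjusted p under 0.05), where 3 of 5564 genes did. Icam2 also stands in the endothelial marker list and Csf1r in the macrophage one.

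For the 6 members with a tested probe set, all but Ccl7 and Icam1, the genes most alike over the 26 arrays were found by Pearson's r of log2 values. These are descriptions: the arrays share the 6 groups, the surgery and the scan days, and the genes were picked as the highest of all tested. For Ccl8 they were Socs2 (0.787), Cyb5r3 (0.778) and Bgn (0.775), for Ccl2 Ugcg (0.759), Thbd (0.703) and Tuba1a (0.701), and for Cxcl12 Atp6v0b (0.808), Atxn7l3 (0.784) and Pttg1ip (0.752). For Il4ra they were Htt (0.726), Lage3 (0.712) and Efnb2 (0.703), for Il6st Fndc1 (0.735), Kif22 (0.723) and Trim47 (0.707), and for Vcam1 Myl1 (0.722), Tcf21 (0.716) and Cd24a (0.703). None of these 6 was among the 3 genes most alike to another of them.

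**Figure D4:**
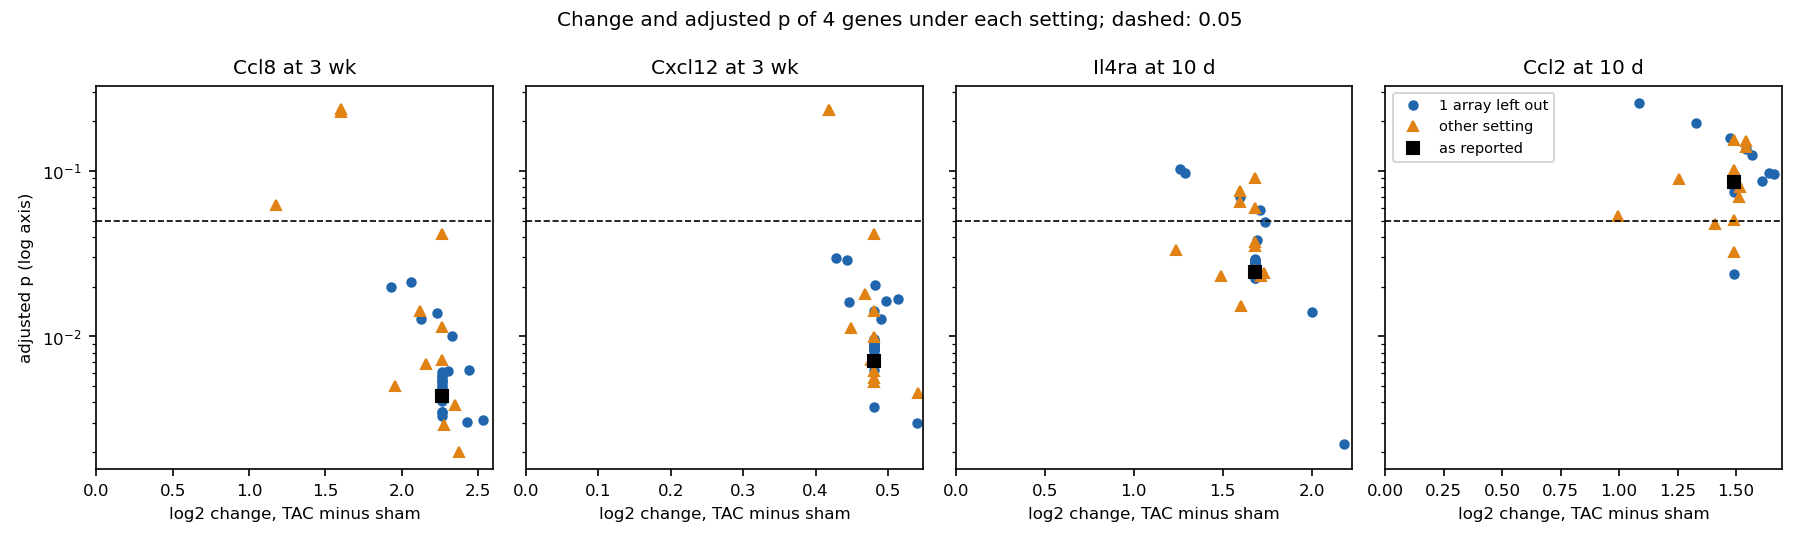
Log2 change, TAC minus sham, against adjusted p (log axis) for Ccl8 and Cxcl12 at 3 wk and Il4ra and Ccl2 at 10 d, as reported (square), with 1 array left out (circles) and under other settings (triangles); the dashed line is at 0.05. Ccl8 and Cxcl12 stay under the line in every fit with 1 array left out, whereas Il4ra crosses it in 4 of these fits. Under some other settings Ccl8, Cxcl12 and Il4ra lie above the line and Ccl2 under it.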

How the data were processed

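Per the labels, the samples were 26 arrays of total RNA from mouse heart after TAC or sham surgery, and the array type is MG_U74Av2 per the file headers. The authors deposited 1 intensity per probe set and array on a linear scale. How probes were summarised and arrays scaled is not stated in the sources used here. After trimming 2% of values from each tail, array means were 2501.81 to 2502.2, so the values were treated as scaled and used as deposited. Genes came from the probe table given with the series: of 12422 non-control probe sets, 10833 name 1 gene, 396 several and 1193 none.

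Values were floored at 167.9, logged and filtered (above 880.1 in at least 4 arrays), which left 7297 probe sets. One limma 3.58.1 model (R 4.3.3) with a mean for each of the 6 groups and eBayes with an intensity trend gave TAC against sham at each duration, the changes of that effect and an F test over the sham groups. Benjamini-Hochberg adjustment ran over all probe sets tested, with an adjusted p under 0.05 as a call. The fit was run on simulated normal values, with a spread shared by all groups and no effect of scan day. Unequal spreads and scan days therefore lie outside that check. The number of arrays limits the precision.

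The members and gene lists were chosen with earlier results of these data known. All members are named. Of each other list the text names up to 4 passing genes with the largest change at a duration, or the 2 with the highest mean where none passed, and for each member with a tested probe set the 3 most alike genes. Named as well, for the size of their differences, are Ccl12 and Cxcl14 of the further chemokines and Irs2 of the interleukin-4 and interleukin-13 list. Of the gp130 family, Il6ra, Osmr and Tyk2 are named for the same reason. A gene is represented by its tested probe set of highest mean. Alternatives were other scaling, floors, filters, variance settings, scan day, a replicate block and leaving out each array. Promoters are from the RefSeq table given (GRCm38.p6), which holds 5 of the 8 members. Protein sequences were not used here.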

Additional observations from a re-analysis of the deposited data

Results flagged for a closer look

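In 5 of 84 groups of 4 or 5 arrays, 1 array stood far from the others by Dixon's criterion, where chance alone gives about 4.2. Ccl7 read 539.2 in TAC replicate 3 of 10 d, against 305 to 307.8 in the other TAC arrays. Ccl2 read 167.7 in sham replicate 3 of 10 d, against 458.2 to 558.3 in the other sham arrays. Il4ra (102021_at) read 897.7 in TAC replicate 1 of 3 wk, against 1418 to 1656 in the others. Vcam1 (92559_at) read 994.4 in TAC replicate 4 of 48 h, against 546.6 to 648.1, and 408 in TAC replicate 4 of 10 d, the array scanned on a day of its own, against 714.9 to 766.8. Without the low sham array, the log2 change of Ccl2 at 10 d was 1.09 (limma adjusted p = 0.255).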

How the results depend on the processing

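Of 40 settings, 26 left out 1 array each and 14 changed another choice. The array number limits what can be called, and Ccl7, Icam1 and the dimmer probe sets lie under the pooled median in most or all arrays. Of the 26 arrays, 2 lay under the floor for Ccl2, 1 for Ccl8 and 0 for Ccl7 and Icam1. Members called at 10 d numbered 1 (0 to 2 with 1 array left out), with 0 called without the filter, with the filter at the 70th percentile (where Il4ra was not tested), with only the groups compared, with scan day as a block and on the main scan day alone, and 2 (Ccl2 and Il4ra) with array weights and with the replicate block. Ccl2 at 10 d was then 1.41 (limma adjusted p = 0.0475) and 1.49 (0.0326). At 3 wk the 2 members called (2 to 2 with 1 array left out) became 1, Cxcl12, with a floor at the 40th percentile or the 70th percentile filter (where Ccl8 was not tested), and 0 with scan day as a block or the main day alone. At 48 h the count was 0 with any array left out. For the change of effect from 48 h to 3 wk it was 0 to 1, and for the sham F test 2 to 3 (Ccl8 passed in 10 of 26 such fits and 5 of 11 other settings, Il6st in 26 and 10, the exception being median centring), with 0 for the other changes of effect. Over all probe sets, the 4 called at 48 h became 1 with median centring, 1 without the trend, 1 with only the groups compared, 8 with the replicate block and 7 with scan day as a block (1 to 8 with 1 array left out). The 355 called at 10 d became 718 with array weights and 538 with only the groups compared (187 to 421), and the 345 at 3 wk became 127 with only the groups compared, 19 with scan day as a block and 33 on the main day alone (168 to 448). Fewer arrays enter the main-day fits, and the fit with scan day as a block leaves out the 2 sham arrays of 3 wk with no day. At 3 wk these fits gave the same difference for Ccl8 (1.60) and for Cxcl12 (0.42), so they are not separate checks. The cause of the other shifts was not tested.

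Replicate numbers gave no sign of pairing the arrays: deviations of the 12 same-numbered pairs correlated between -0.131 and 0.0324, 0 of them over 0.1. A pairing that affects few genes would not be seen this way. Signs turned for Vcam1 92558_at at 10 d (0.0055 with median centring, -0.17 to 0.094 with 1 array left out), Il6st 98349_at at 48 h (0.029 with the replicate block, -0.10 to 0.061) and Vcam1 92560_g_at at 3 wk (0.0032 with the replicate block, -0.20 to 0.12). With scan day as a block or on the main day alone, Il6st 94345_at at 3 wk was -0.074 and Vcam1 92559_at at 3 wk -0.069. With 1 array left out, ranges crossed 0 for Ccl2 at 3 wk (-0.055 to 0.75), Vcam1 92558_at at 3 wk (-0.28 to 0.068), Il6st 98349_at at 10 d (-0.12 to 0.018) and 3 wk (-0.053 to 0.17), Vcam1 92560_g_at at 10 d (-0.40 to 0.031), Vcam1 92559_at at 10 d (-0.20 to 0.37), Cxcl12 162234_f_at at 10 d (-0.12 to 0.041) and Il4ra 102021_at at 48 h (-0.024 to 0.24).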
